A study of Mus musculus with 6 samples.

Results

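The natriuretic peptide system was followed in the mouse heart through 8 genes, chosen by name from the array's annotation. They were the peptide genes *Nppa*, *Nppb* and *Nppc*, the receptor genes *Npr1*, *Npr2* and *Npr3*, and the genes of the processing proteases, *Corin* and *Furin*. All non-control probes carrying one of these symbols were taken, which gave 15 probes of the 56605 on the array, or 8 of its 27307 gene symbols. RNA came from the myocardium of male C57BL/6J mice, 3 per group and 1 Cy3-labelled Agilent array per mouse. All 6 mice were *Clk4*-cKO, that is, they lacked the kinase CLK4 in cardiomyocytes after tamoxifen had activated a MerCreMer recombinase driven by the α-MHC promoter. One group had received AAV NEXN-S437E, an AAV9 vector for nexilin, a Z-disc protein, in which a glutamate replaces a serine to mimic its phosphorylation. The other group had received AAV NEXN-WT, the same vector with unmutated nexilin, and served as the control. The vector's CMV promoter is not restricted to cardiomyocytes. The labels give no age, and the study's methods describe tamoxifen treatment of young adult males. No mouse with intact *Clk4* and no mouse without vector was among the samples, so each difference below is between both nexilin forms on the knockout background.

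Atrial natriuretic peptide (ANP, from *Nppa*) and B-type natriuretic peptide (BNP, from *Nppb*) are hormones that cardiomyocytes make under stretch and load. Their precursors are cut by the transmembrane protease corin and by furin. The peptides act through the guanylyl cyclase receptor encoded by *Npr1*, which raises cyclic GMP (cGMP), while the receptor encoded by *Npr2* answers to C-type natriuretic peptide (from *Nppc*) and the receptor encoded by *Npr3* removes the peptides from the circulation. In the ventricle *Nppa* and *Nppb* belong to the fetal genes that are switched on again in hypertrophy, and both are widely used as markers of it.

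*Nppa* and *Nppb* are neighbours on chromosome 4, and the letters before their starts are shown because both genes are known targets of the same cardiac factors. The RefSeq sequences are on GRCm38.p6, plus strand, and run up to the annotated start. Capitals mark matches to GATAA, the core bound by GATA factors. Capitals also mark AAGTG, an NKX2-5 core, and matches to CATTCC, the MCAT element of TEAD factors. These 3 motifs were searched on both strands, so their reverse complements are marked too. The last motif marked is TATAAA, on the plus strand only, and no marked match overlaps another.
Nppa, chr4:148000472-148000721: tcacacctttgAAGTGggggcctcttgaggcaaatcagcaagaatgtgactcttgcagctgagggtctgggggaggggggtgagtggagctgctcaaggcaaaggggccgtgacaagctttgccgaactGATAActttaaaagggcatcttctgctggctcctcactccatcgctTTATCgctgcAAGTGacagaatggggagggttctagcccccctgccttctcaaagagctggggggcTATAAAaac
Nppb, chr4:147985650-147985899: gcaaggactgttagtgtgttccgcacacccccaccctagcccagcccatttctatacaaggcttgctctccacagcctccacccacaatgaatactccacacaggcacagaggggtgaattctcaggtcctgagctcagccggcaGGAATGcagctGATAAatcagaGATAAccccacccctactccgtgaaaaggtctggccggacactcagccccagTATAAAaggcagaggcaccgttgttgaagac

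Both windows held GATAA at 2 places and TATAAA at 1. In *Nppa* the GATAA matches began 121 and 75 bases before the start, and in *Nppb* they began 94 and 83 bases before it. AAGTG was found at 2 places in *Nppa* and CATTCC at 1 place in *Nppb*. GATAA occurred in 22.6% of all 32851 promoter windows of this length, AAGTG in 40.7%, CATTCC in 12.6% and TATAAA in 7.59%, while GATAA and TATAAA occurred together in 2.56%. The AP-1 letters TGANTCA, found in 6.75% of windows, matched neither gene. The windows of *Nppc*, *Npr1*, *Npr2*, *Npr3*, *Corin* and *Furin* held no GATAA. These matches describe letters only, since no binding was measured.

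The array signal was taken on a log2 scale relative to the 75th percentile of each array, computed over the probes well above background on all 6 arrays, so a value of 0 is a probe at that percentile. Values of different probes cannot be set against each other, because probes differ in brightness at the same RNA level. Between 41.9% and 47.8% of the probes were well above background on an array and none was saturated. NEXN-WT replicate 1 was the brightest array and stood apart, with a mean absolute difference of 0.40 (log2) from its own group against 0.24 to 0.34 for the other 5 arrays. All arrays were on 1 slide. Slide row 1 held all 3 NEXN-WT hearts together with replicate 1 of NEXN-S437E, and slide row 2 held the other NEXN-S437E hearts. Of the 15 probes, 11 (6 of the 8 genes) were well above background on all 6 arrays and entered the limma fit over 22998 probes.

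In the hearts given NEXN-S437E, *Nppa* fell on both of its probes, by 2.77-fold and 4.43-fold. *Nppb* gave divergent readings, with 1 probe 1.82-fold lower and the other differing by 1.03-fold. *Corin* was 1.58-fold and 1.32-fold higher without passing the 2-fold threshold, and the differences of *Npr2*, *Npr3* and *Furin* were at most 1.22-fold. The study's thresholds (2-fold and unadjusted *P* under 0.05) were passed by 2 of the 11 tested probes, both of *Nppa* and both lower. Over all tested probes 2.03% were called lower by these thresholds and 0.53% higher. The same 2 probes had a limma adjusted *P* under 0.05, a call that 0.126% of all tested probes received in the lower direction. Counting any size of change, 5 of the 11 probes had an unadjusted *P* under 0.05 (3 lower, 2 higher), against 16.4% of all tested probes. The groups did not overlap on 6 of the 11 probes (4 lower, 2 higher), against 26.8% of the tested probes with a value on every array. The median difference of the 11 probes was -0.10 (log2), and that of all tested probes 0.01.

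**Figure D1:**
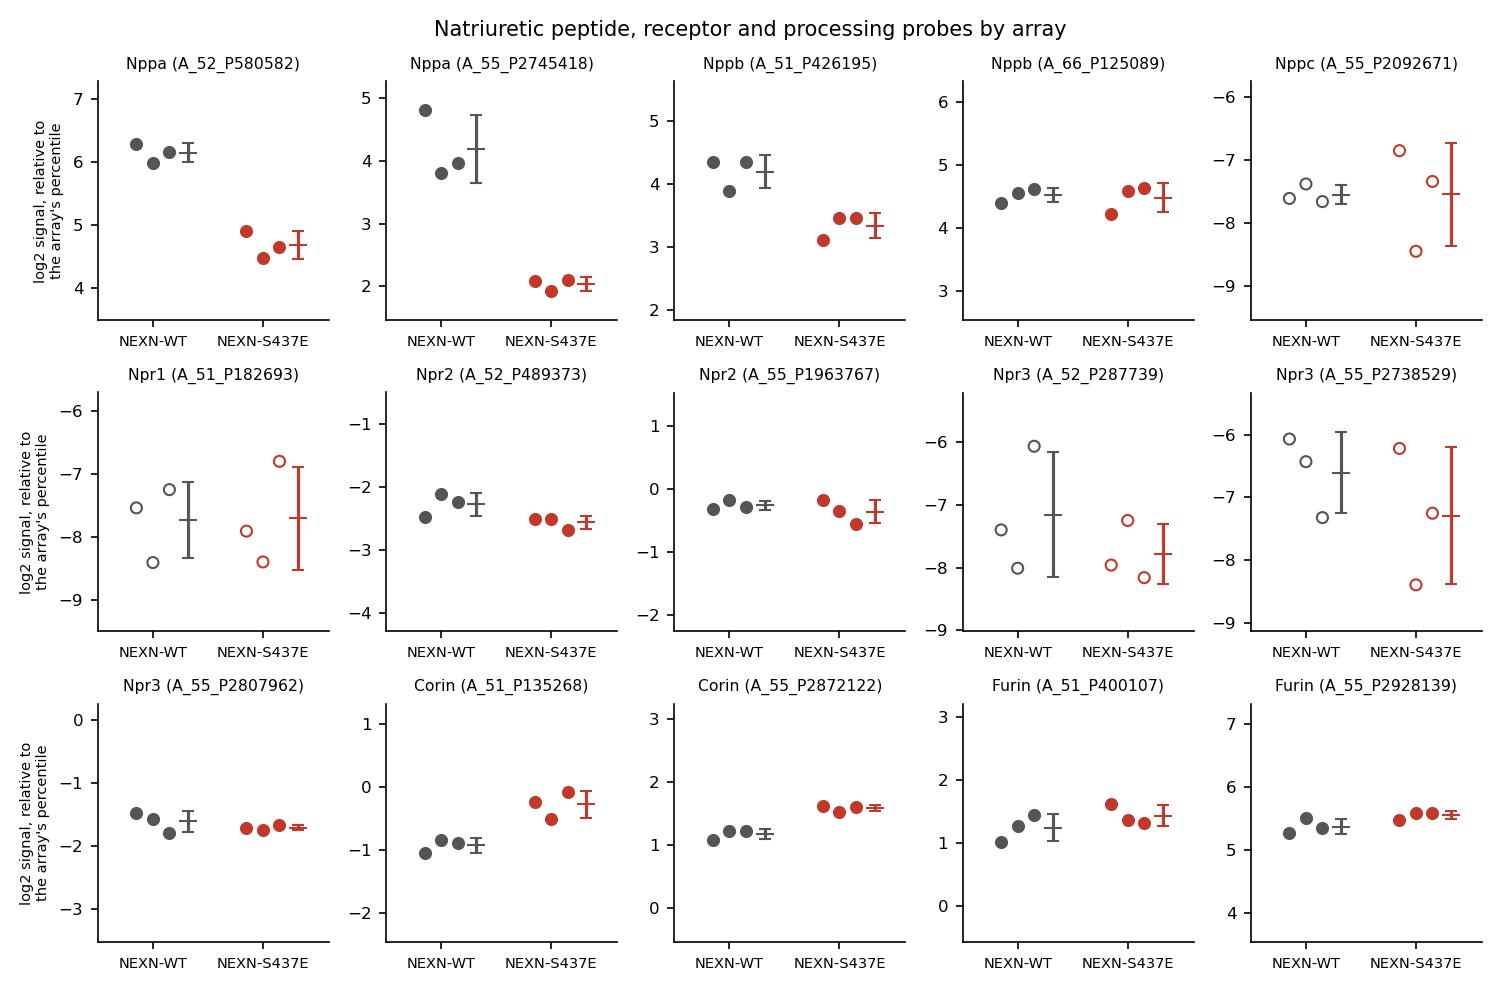
Log2 signal of the 15 probes relative to each array's percentile, in 15 panels of equal height, with NEXN-WT arrays in grey and NEXN-S437E arrays in red (3 each). The bars give the mean and SD, and open circles mark the 4 probes that were not tested. The groups are wide apart on both *Nppa* probes, apart on 1 *Nppb* probe and overlapping on the other.

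The first *Nppa* probe, A_52_P580582 (chromosome 4, 147376024 to 147376083 on mm9, plus strand), read 6.29, 5.99 and 6.16 in the NEXN-WT hearts, against 4.91, 4.47 and 4.65 in the NEXN-S437E hearts. Every NEXN-S437E array lay more than 1 log2 unit below every NEXN-WT array. The group means were 6.15 ± 0.15 and 4.68 ± 0.22 (SD, n = 3 mice in each group), and the log2 fold change was -1.47 (SE 0.16, limma adjusted *P* = 0.0303). The background-subtracted intensities behind these values were 119000, 66500 and 67300 against 20800, 22000 and 22000. By *P* this probe ranked 23 of 22998.

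The second *Nppa* probe, A_55_P2745418 (chromosome 4, 147375892 to 147375951), read 4.80, 3.80 and 3.96 in the NEXN-WT hearts, against 2.09, 1.92 and 2.11 in the NEXN-S437E hearts. NEXN-WT replicate 1 was the highest, and the 3 NEXN-S437E arrays were tightly grouped below all NEXN-WT arrays. The log2 fold change was -2.15 (SE 0.26, limma adjusted *P* = 0.0433), the rank by *P* 28 and the rank from the most negative change 85.

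Leaving out NEXN-WT replicate 1 left the *Nppa* changes at -1.40 and -1.84 (log2, limma adjusted *P* = 0.0348 and 0.00782). Without any 1 of the other 5 arrays both probes kept the study's thresholds and lost the adjusted one, with adjusted *P* from 0.0646 to 0.172 on A_52_P580582 and from 0.072 to 0.191 on A_55_P2745418 by limma. Across 20 alternative settings the change of A_52_P580582 ranged from -1.77 to -1.24 and it passed the study's thresholds in all of them, while its adjusted *P* ranged from 0.00257 to 0.424 and was under 0.05 in 9. Within slide row 1, which holds both groups, both probes were lower as well, by -1.24 (limma adjusted *P* = 0.424) and -2.10 (limma adjusted *P* = 0.453), with the 1 NEXN-S437E array there assumed to vary like the NEXN-WT arrays. An exact permutation test over the 6 arrays gave 0.1 for each probe, the smallest two-sided *P* that 3 against 3 arrays can give.

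*Nppb* was read by A_51_P426195 (chromosome 4, 147360489 to 147360548) and A_66_P125089 (147361247 to 147361306). The first of these is printed, in lower case, because it is the probe on which *Nppb* was lower.
A_51_P426195: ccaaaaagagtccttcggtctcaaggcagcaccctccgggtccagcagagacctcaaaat

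A_51_P426195 read 4.35, 3.90 and 4.36 in the NEXN-WT hearts, against 3.11, 3.46 and 3.46 in the NEXN-S437E hearts. The groups did not overlap, and NEXN-S437E replicate 1 was the lowest array. The log2 fold change was -0.86 (SE 0.18, 95% interval -1.29 to -0.43), with an unadjusted limma *P* of 0.00196 and an adjusted *P* of 0.144, so the probe passed neither threshold. On the deposited normalized values the change was -1.05 and did pass the study's thresholds (adjusted *P* = 0.126 by limma), as it did in 5 of 19 alternative settings, among them the fit without NEXN-WT replicate 2 (-1.01).

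A_66_P125089 read 4.39, 4.55 and 4.62 in the NEXN-WT hearts, against 4.22, 4.59 and 4.63 in the NEXN-S437E hearts. Here the groups overlapped, and the log2 fold change was -0.04 (SE 0.16, 95% interval -0.41 to 0.33, limma adjusted *P* = 0.909). This is the *Nppb* probe of highest mean, so a rule of 1 probe per gene takes it alone. Its direction turned to higher in 4 of 20 alternative settings, up to 0.09.

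**Figure D2:**
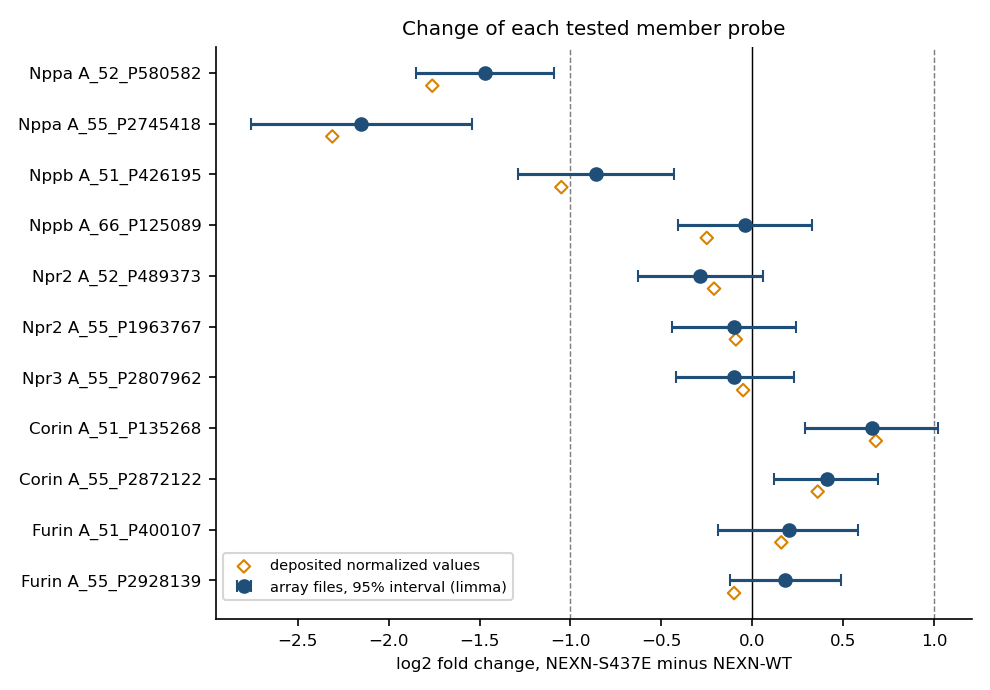
Log2 fold change (NEXN-S437E minus NEXN-WT) of the 11 tested probes, with the limma 95% interval (filled circles) and the change on the deposited normalized values (open diamonds). Dashed lines mark a 2-fold change. Only the *Nppa* intervals lie wholly past the dashed line, and the diamond of *Nppb* A_51_P426195 is past it at -1.05.

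The disagreement between the *Nppb* probes was measured directly as their difference on each array. A_51_P426195 minus A_66_P125089 was -0.04, -0.65 and -0.27 (log2) in the NEXN-WT hearts, against -1.12, -1.13 and -1.17 in the NEXN-S437E hearts. The difference widened by 0.82 without overlap of the groups (change -0.82, exact permutation *P* = 0.1, two-sided, the smallest possible). GC content was 55% for A_51_P426195 and 35% for A_66_P125089, and no run of 20 bases of either probe was found in another probe of the array. Whether the probes read the same transcripts was not tested.

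The *Nppa* probes also changed unequally, the second minus the first by -0.68 (exact permutation *P* = 0.1), with no overlap. In *Corin*, A_51_P135268 minus A_55_P2872122 changed by 0.25 (exact permutation *P* = 0.1). In *Npr2*, A_52_P489373 minus A_55_P1963767 changed by -0.19 (exact permutation *P* = 0.3), and in *Furin*, A_51_P400107 minus A_55_P2928139 by 0.01 (exact permutation *P* = 0.7). These 5 within-gene comparisons form 1 family, in which the exact permutation *P* of 0.1 becomes 0.167 after Benjamini-Hochberg adjustment, and with 3 arrays against 3 none can go below 0.1.

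**Figure D3:**
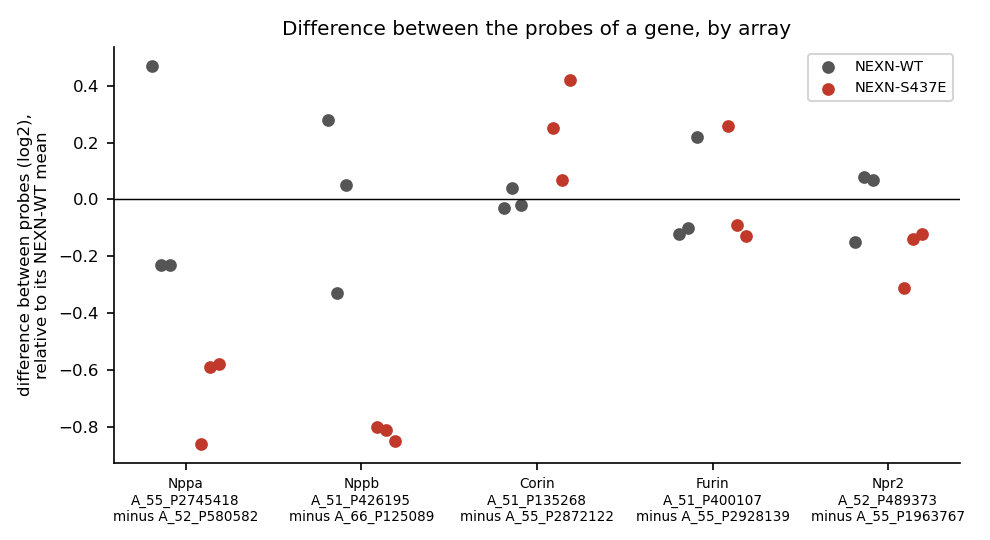
Difference between the 2 probes of a gene (log2) on each array, set to 0 at its NEXN-WT mean, for the 5 genes with a pair of tested probes. All NEXN-S437E arrays are below all NEXN-WT arrays for *Nppa* and *Nppb* and above them for *Corin*, while the groups overlap for *Furin* and *Npr2*.

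The remaining peptide gene, *Nppc*, encodes C-type natriuretic peptide, which endothelial and other cells release to act nearby. Its only probe, A_55_P2092671 (chromosome 1, 88563020 to 88563079, minus strand), stayed near background in all 6 hearts. Its intensities were 2.83 to 7.75 over the 6 arrays, and no fold change was computed.

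Of the receptor genes, *Npr1* was likewise read by 1 probe, A_51_P182693 (chromosome 3, 90259171 to 90259664, minus strand), which stayed near background in all 6 hearts. The intensities were 8.17, 3.08 and 6.22 in the NEXN-WT hearts, against 2.87, 2.93 and 7.86 in the NEXN-S437E hearts. The receptor for ANP and BNP therefore has no usable reading here, which says nothing of its level in the heart. The design places the 60 bases of this probe over a span of 494 bases. The probe of its paralogue *Npr2*, A_52_P489373 (chromosome 4, 43661226 to 43661285), covers a matching stretch and was well above background on every array. The sequences are set side by side, with bases identical over the 40 aligned positions in capitals (34 of 40, 85%).
Npr1 A_51_P182693: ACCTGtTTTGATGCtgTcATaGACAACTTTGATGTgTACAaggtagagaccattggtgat
Npr2 A_52_P489373: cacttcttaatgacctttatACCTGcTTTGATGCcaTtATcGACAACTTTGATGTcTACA

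*Npr2* read -2.47, -2.11 and -2.24 in the NEXN-WT hearts, against -2.50, -2.50 and -2.68 in the NEXN-S437E hearts with A_52_P489373. The NEXN-S437E arrays were the lowest 3 by a narrow margin, and the log2 fold change was -0.29 (SE 0.15, 95% interval -0.63 to 0.06, limma adjusted *P* = 0.366). With A_55_P1963767 (43664035 to 43664094) the groups overlapped, with -0.31, -0.18 and -0.29 against -0.18, -0.35 and -0.55, and the change was -0.10 (SE 0.14, 95% interval -0.44 to 0.24, limma adjusted *P* = 0.746).

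*Npr3*, the clearance receptor, had 3 probes on chromosome 15. A_55_P2807962 (11769666 to 11769725) read -1.47, -1.56 and -1.79 against -1.71, -1.74 and -1.66, a change of -0.10 (SE 0.14, 95% interval -0.42 to 0.23, limma adjusted *P* = 0.738). The groups overlapped. A_52_P287739 stayed near background throughout, and A_55_P2738529 rose clear of it on 1 NEXN-WT array only, so neither was tested.

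Among the processing genes, *Corin* pointed the opposite way to *Nppa*. A_51_P135268 (chromosome 5, 72692288 to 72692347, minus strand) read -1.06, -0.84 and -0.90 in the NEXN-WT hearts, against -0.24, -0.51 and -0.09 in the NEXN-S437E hearts. Its log2 fold change was 0.66 (SE 0.16), with an unadjusted limma *P* of 0.0035 and an adjusted *P* of 0.153. A_55_P2872122 (72691284 to 72691343) read 1.08, 1.22 and 1.22 against 1.61, 1.52 and 1.60, a change of 0.41 (SE 0.12), with an unadjusted limma *P* of 0.0126 and an adjusted *P* of 0.208. On both probes every NEXN-S437E array was above every NEXN-WT array. An unadjusted *P* under 0.05 in the higher direction was found for 7.89% of all tested probes, and the array-wide adjustment was not passed. The first probe stayed higher in all 19 alternative settings that tested it (0.56 to 0.77) and the second in all 20 (0.36 to 0.48).

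*Furin*, the gene of a proprotein convertase found in most tissues, differed little. A_51_P400107 (chromosome 7, 87534108 to 87534167) read 1.01, 1.27 and 1.44 against 1.62, 1.37 and 1.31, a change of 0.20 (SE 0.16, 95% interval -0.19 to 0.58, limma adjusted *P* = 0.556). A_55_P2928139 read 5.26, 5.50 and 5.34 against 5.48, 5.59 and 5.58, a change of 0.18 (SE 0.13, 95% interval -0.12 to 0.49, limma adjusted *P* = 0.495). The groups overlapped on both probes. The second probe is an uncertain reading of *Furin*, because its annotation places only 28 of its 60 bases. A run of 20 of its bases also occurs in 15 other probes of the array and in the promoter windows of 38 other genes, which held for none of the other 14 probes.

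The *Nppa* and *Nppb* probes lie within 15.5 kb of each other, so genes around them were examined for a change of the whole region. Within 100 kb of these probes, 15 probes of 7 other genes were examined, of which 9 probes (5 genes) were tested. Of these 9, none passed the study's thresholds or the limma adjusted *P*, 1 had an unadjusted *P* under 0.05, and the changes ranged from -0.38 to 0.22 (log2, median -0.04). The nearest of these genes, *Clcn6*, which encodes a chloride transporter, differed by -0.25 (SE 0.20, limma adjusted *P* = 0.533) and -0.11 (SE 0.20, adjusted *P* = 0.808) on the 2 of its 4 probes that were tested. Both probes were well above background on every NEXN-WT array and on 2 and 1 of the NEXN-S437E arrays. *Plod1*, a collagen lysyl hydroxylase gene at the *Nppb* end of the window, had the single unadjusted *P* under 0.05 (change -0.38, limma adjusted *P* = 0.249). *Agtrap*, which encodes a protein bound to the angiotensin II receptor, differed by -0.04 to 0.13 on 3 probes. Of the other genes examined, *2510039O18Rik* differed by -0.12 and -0.03 and *Gm13202* by 0.22, and no probe of *Gm13201* or *Draxin* was tested.

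**Figure D4:**
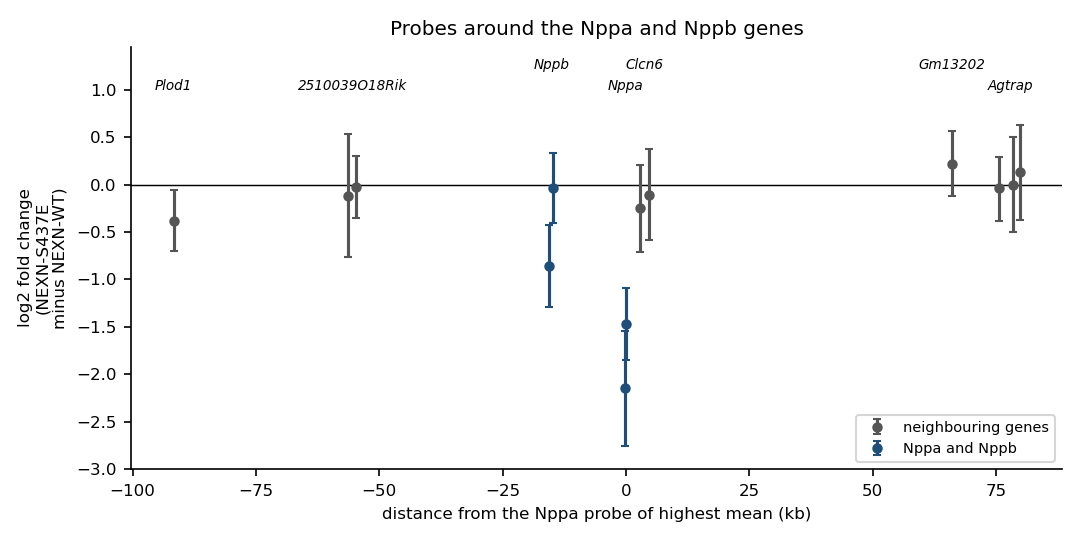
Log2 fold change with limma 95% interval of the 9 tested probes around *Nppa* and *Nppb* and of the probes of these genes, against their distance in kb from *Nppa* A_52_P580582. *Nppa* and *Nppb* are blue and the neighbouring genes grey. The grey points lie between -0.38 and 0.22 and none reaches the *Nppa* probes at -1.47 and -2.15.

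As a description, the genes whose profile over the 6 arrays was most like *Nppa* A_52_P580582 were *Igfbp6*, *Dusp2*, *Fzd2*, *Adcyap1r1* and *Olfml2b*. Likeness was the mean absolute difference of the log2 values after each probe's own mean had been removed, and it was 0.07 for *Igfbp6* and 0.13 to 0.15 for the others. *Igfbp6* encodes a binding protein of insulin-like growth factors and changed by -1.35 (log2). For the second *Nppa* probe, A_55_P2745418, the nearest were *Col1a1*, a collagen gene on the fibroblast list described further on, *Plac8*, *Bdh2*, *Gabra3* and *Pdgfrl*, at 0.16 to 0.21, with changes from -2.21 to -1.83. For *Nppb* A_51_P426195 they were *Usp18*, *Rab3il1*, *Lman1l*, *Spidr* and *Prrg3*, at 0.09 to 0.10, with changes from -0.91 to -0.66. For *Nppb* A_66_P125089 the nearest were *Fam149b*, *Gtf3a*, *4833439L19Rik*, *Coprs* and *Asxl2*, at 0.03 to 0.04, and their changes ranged from -0.11 to -0.01.

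The rest of the cGMP pathway was followed together with peptide breakdown, related convertases and osteocrin, through 31 genes in 4 lists. Of their 77 probes, 44 (26 genes) were tested, and 2 were called lower and 1 higher by the study's thresholds, against 2.03% and 0.53% of all tested probes. The median change of the 40 probes well above background on every array was -0.08, against 0.02 for all such probes. Other sources of cGMP (5 tested probes) gave no call. The lowest *P* values were those of *Gucy1a3*, a subunit of the nitric oxide receptor, at -0.56 (limma adjusted *P* = 0.251), and of its partner subunit gene *Gucy1b3* at -0.21 (adjusted *P* = 0.579).

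Among the genes of cGMP breakdown and export (20 tested probes), 1 probe of *Pde1a*, a calmodulin-dependent phosphodiesterase, was called lower. A_55_P1974845 read -1.94, -3.07 and -3.19 against -3.55, -3.82 and -4.09, a change of -1.09 (SE 0.34, limma adjusted *P* = 0.21). NEXN-WT replicate 1 was far above the rest, and without it the change was -0.69 and the call was lost, as it was without NEXN-S437E replicate 3 (-0.95). The other *Pde1a* probes changed by -0.71 and -0.08. *Pde5a* and *Pde9a*, genes of cGMP-specific phosphodiesterases, changed by 0.36 and -0.15 (limma adjusted *P* = 0.349 and 0.749).

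Among the cGMP effectors (11 tested probes) *Rgs2* rose. It encodes a regulator that shortens signalling through Gq-coupled receptors and is a substrate of cGMP-dependent protein kinase. A_55_P2109857 read -0.06, -0.06 and -0.29 in the NEXN-WT hearts, against 0.95, 0.94 and 0.89 in the NEXN-S437E hearts, so the groups were far apart with little spread within either. The change was 1.06 (SE 0.13, limma adjusted *P* = 0.0433), a call that 0.0217% of all tested probes received in the higher direction. The adjusted *P* was under 0.05 in 8 of 20 alternative settings (limma adjusted *P* from 0.00357 to 0.479). Without NEXN-WT replicate 3 it was 0.99, just under 2-fold. The other *Rgs2* probe was not well above background. *Prkg1*, which encodes the cGMP-dependent kinase itself, changed by -0.59 and -0.34 (limma adjusted *P* = 0.167 and 0.495).

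Of the genes of peptide breakdown and related convertases (8 tested probes), *Pcsk5* was called lower on 1 probe and *Mme*, which encodes neprilysin, was not. *Pcsk5* A_52_P544043 read -2.23, -3.75 and -3.55 against -4.37, -4.13 and -4.36, a change of -1.11 (SE 0.37, limma adjusted *P* = 0.229). Again NEXN-WT replicate 1 was the highest. Without it the change was -0.64, and without NEXN-S437E replicate 1 the unadjusted limma *P* was 0.0595, so the call was lost in either case. *Mme* changed by 0.15 and 0.56 (limma adjusted *P* = 0.768 and 0.424), *Ide* by 0.05 and 0.53, and osteocrin (*Ostn*), a ligand of the clearance receptor, was not well above background.

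Transcription factors known to act on *Nppa* and *Nppb* gave no call on 25 tested probes of 14 genes (median -0.02 over the 23 probes well above background throughout). *Gata4* changed by 0.15 and 0.26 and *Nkx2-5* by 0.33 (limma adjusted *P* = 0.78, 0.423 and 0.555). The lowest *P* values belonged to *Tbx20*, at -0.57, -0.75 and -0.40 (adjusted *P* = 0.245, 0.265 and 0.452), and then to *Rest*, the repressor of fetal cardiac genes, at -0.29, -0.24 and -0.22.

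Other fetal and load-responsive cardiomyocyte genes were read beside *Nppa*. Of 8 tested probes, 1 per gene, 2 were called lower, against 2.03% of all tested probes, and 4 were lower at an unadjusted limma *P* under 0.05, against 8.54%. *Myh7*, the slow myosin heavy chain gene, read 5.26, 3.51 and 4.28 against 2.14, 1.57 and 2.12, a change of -2.40 (SE 0.41, limma adjusted *P* = 0.105). *Acta1*, skeletal α-actin, read 3.18, 4.42 and 3.95 against 2.71, 2.35 and 2.42, a change of -1.36 (SE 0.30, limma adjusted *P* = 0.149). Both were lower on every NEXN-S437E array. The 6 other genes, *Ankrd1* (-0.76), *Rcan1* (-0.47), *Ctgf* (-1.01), *Xirp2* (-0.48), *Tnni1* (-0.04) and *Actc1* (0.16), did not pass, and the median over the 8 probes was -0.62. Without NEXN-WT replicate 1, *Ctgf* differed by -0.41, *Xirp2* by -0.11 and *Ankrd1* by -0.48, and the median was -0.39. *Myh7* and *Acta1* then changed by -1.95 and -1.69.

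Markers of cell types were read beside the natriuretic peptide genes, because RNA from whole myocardium cannot tell fewer cells of a type from less RNA per cell. Levels of a list are sums of linear values relative to the array's percentile, over the tested probe of highest mean of each gene. Of the cardiomyocyte markers, all 8 genes had probes well above background on all 6 arrays, and the sums were 308 to 359 on NEXN-WT arrays and 420 to 444 on NEXN-S437E arrays. Of their 18 tested probes none was called and 5 were higher with an unadjusted limma *P* under 0.05, against 7.89% of all tested probes, led by *Tnni3* (0.50, adjusted *P* = 0.184) and *Myh6* (0.50, adjusted *P* = 0.202).

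*Nppa* is far more abundant in atria, so atrial markers were listed. *Mybphl* and *Bmp10* were near background throughout, and *Sln* and *Myl7* did not clear the background in all hearts of either group. The summed level was 1.25 to 2.39 on NEXN-WT arrays and 1.02 to 1.47 on NEXN-S437E arrays, with overlap, and the median change of the 6 probes well above background on every array was -0.66. At an unadjusted limma *P* under 0.05, 4 of these 6 probes were lower, against 8.54% of all tested probes. By the study's thresholds 2 of the 6 were called lower, against 2.03%. Both calls were of *Dkk3* (-3.42 and -2.99, limma adjusted *P* = 0.0936 and 0.169), with changes of -2.74 and -2.03 without NEXN-WT replicate 1. The last of the 7 tested probes, of *Kcnj3*, was called higher (1.44, limma adjusted *P* = 0.223). It was well above background on 1 of 3 NEXN-WT arrays. It thus entered the test through the NEXN-S437E group alone, and its call is no separate support. Without NEXN-WT replicate 1 its change was 0.93, and without NEXN-S437E replicate 1 its unadjusted limma *P* was 0.066. The other tested *Kcnj3* probe, well above background on all 6 arrays, differed by 0.73 without overlap (limma unadjusted *P* = 0.00198, adjusted *P* = 0.144). *Kcna5* differed by 0.24 (limma adjusted *P* = 0.623). *Myl4* changed by -0.62 and -0.70 with no overlap between groups (limma unadjusted *P* = 0.015 and 0.0199, adjusted *P* = 0.216 and 0.231). The part of atrial tissue in the *Nppa* result was not tested.

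Probes of 3 of the 7 fibroblast marker genes were called lower, the direction of *Nppa*. No probe of this list had a limma adjusted *P* under 0.05. Of 13 tested probes, 12 were well above background on all 6 arrays and the other, of *Postn*, on the NEXN-WT arrays alone. Of the 12, 8 were called lower, those of *Col1a1*, *Col3a1* and *Postn*, against 2.03% of all tested probes. The summed level was 86.4 to 141 on NEXN-WT arrays and 65.7 to 70.8 on NEXN-S437E arrays. *Postn* A_51_P489192, periostin, read 3.71, 0.95 and 1.12 against -1.17, -1.23 and -0.99, a change of -3.06 (limma adjusted *P* = 0.145) that was -2.17 without NEXN-WT replicate 1. Of the 4 genes on the list whose probes were not called, *Pdgfra* and *Lum* differed by -0.93 and -0.81 with no overlap between groups (limma unadjusted *P* = 0.00834 and 0.0236, adjusted *P* = 0.185 and 0.241), and *Tcf21* and *Dcn* by -0.36 and -0.16 with overlap (limma adjusted *P* = 0.393 and 0.557). Of the 12 probes, 10 were lower at an unadjusted limma *P* under 0.05, against 8.54% of all tested probes. Without NEXN-WT replicate 1, *Col3a1* A_55_P2717454 lost its call (-0.95), and it did so in 4 of the 5 other omissions of 1 array.

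Some T cell markers were lower as well. *Cd3d* A_66_P109615 read -2.54, -2.41 and -2.19 against -4.45, -5.55 and -4.83, a change of -2.56 (limma adjusted *P* = 0.0268). The other *Cd3d* probe and the *Cd3g* probe were well above background on every NEXN-WT array and on no NEXN-S437E array, so that they entered the test through the NEXN-WT group alone and their calls are no separate support. *Cd3e* differed by -0.28 and -0.62 (limma adjusted *P* = 0.73 and 0.231) and *Cd4* by 0.15 (limma adjusted *P* = 0.627), and neither was called. The summed level of the 3 genes read well above background on all 6 arrays (*Cd3d*, *Cd3e* and *Cd4*) was 0.34 to 0.416 against 0.188 to 0.205.

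Endothelial, endocardial, smooth muscle and macrophage markers gave no call on 6, 8, 11 and 6 tested probes. The lowest *P* values in these lists were those of *Tek* (-0.24) and *Emcn* (0.14), *Cdh11* (-0.42) and *Nfatc1* (-0.32), *Pdgfrb* (-0.43) and *Cnn1* (-0.43), and *Adgre1* (-0.55) and *Cd68* (0.05). Their limma adjusted *P* values were 0.227 or higher. The part of a changed cell composition in the *Nppa* and *Nppb* results was not tested.

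**Figure D5:**
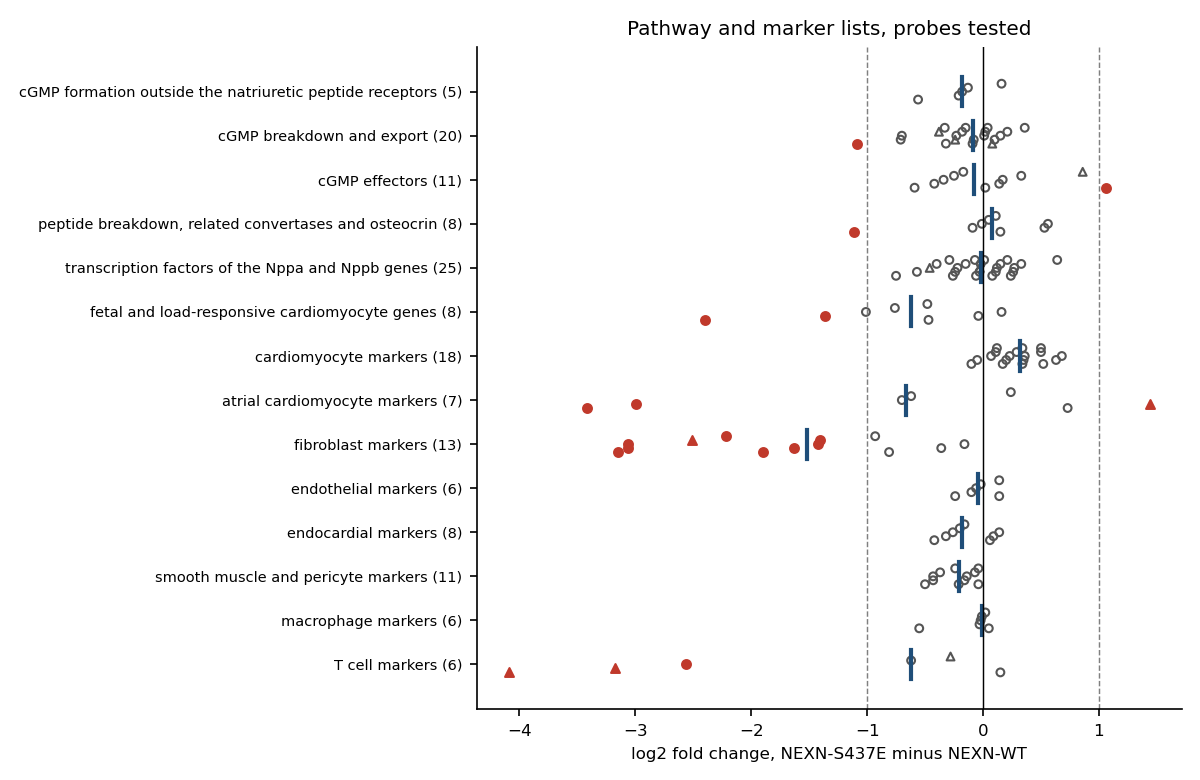
Log2 fold change of every tested probe of the 14 lists, with the number of tested probes in parentheses. Red points passed the study's thresholds, triangles were not well above background on all 6 arrays, blue bars are medians over the circles and dashed lines mark 2-fold. The fibroblast bar lies at -1.52, the atrial bar at -0.66, the fetal gene and T cell bars at -0.62 and the cardiomyocyte bar at 0.32.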

How the data were processed

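Per the labels, total RNA was labelled with Cy3 and hybridised to 1 Agilent array per mouse. The authors deposited an intensity for each spot, the processed signal of Feature Extraction 10.7.1.1, which is background-subtracted and not normalized between arrays. They also deposited normalized log2 values in a table of the series, whose normalization is not given in the sources used here. Probe coordinates are on mm9. No annotation of that build was used here, and exons, introns and UTRs were therefore not assigned.

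The analysis began from the deposited intensities. Control and outlier spots were left out, spots of a probe were averaged, and each array's 75th percentile over the probes well above background on all 6 arrays was subtracted on the log2 scale. A probe was kept if every array of 1 group or of both read it well above background (22998 probes). Groups were compared with limma 3.58.1 (lmFit, eBayes, Benjamini-Hochberg over all kept probes) in R 4.3.3 (data.table package, version 1.17.8) and checked on simulated data. Single values were compared with an exact permutation test over arrays. Sequence searches and figures were made in Python 3.11.15 (pandas 2.3.3, numpy 2.4.6, matplotlib 3.10.9). With intensities and no counts, the number of arrays limits the precision.

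Members and lists were chosen with earlier results of these data known. All members were named with all probes, and for each list the genes past the study's thresholds or, failing these, the 2 genes of lowest *P*. Genes within 100 kb on the chromosome and the 5 nearest profiles were named too, apart from an item not reported here, and further list genes (*Pde5a*, *Pde9a*, *Prkg1*, *Mme*, *Ide*, *Ostn*, *Gata4*, *Nkx2-5*, the uncalled fetal genes, *Myl4*, *Kcna5*, *Pdgfra*, *Lum*, *Tcf21*, *Dcn*, *Cd3e*, *Cd4* and undetected markers) were chosen after their values were seen. Alternatives were the 75th percentile over all probes, quantile normalization, normexp (offset 50), the deposited values, other filters on dim probes and outlier spots kept. Further ones were the methods' t-test, a replicate or slide row block, slide row 1 alone, array weights and an intensity trend. The last were 1 probe per gene and each array left out.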

Additional observations from a re-analysis of the deposited data

How the results depend on the processing

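Across 20 alternatives the *Nppa* probe of highest mean stayed lower and past the study's thresholds, but its adjusted *P* was mostly above 0.05. The number of natriuretic peptide probes past the adjusted threshold was 2 as reported, 0 with quantile normalization, no filter on dim probes, the methods' t-test, the slide row block or slide row 1 alone, 1 with the deposited values or 1 probe per gene, and 6 with array weights. Leaving out 1 array gave 0 to 2, with 2 kept only without NEXN-WT replicate 1. The number past the study's thresholds was 2 as reported, 1 with 1 probe per gene, and 3, with *Nppb* A_51_P426195 added, with quantile normalization, the deposited values, the slide row block, slide row 1 alone and without NEXN-WT replicate 2. For the 4 lists on cGMP and on peptide breakdown with related convertases the count was 3 as given above. It was 1 with normexp, the methods' t-test or array weights, and 1 to 4 when 1 array was left out. *Nppb* (probe of highest mean) changed sign, to 0.04 with the percentile over all probes and 0.03 with array weights, and ranged from -0.11 to 0.09 when 1 array was left out. *Furin* A_55_P2928139 turned to -0.10 with quantile normalization and with the deposited values, and *Npr2* A_55_P1963767 to 0.08 with the slide row block and in slide row 1. The cause of these shifts was not tested.

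Over all probes the adjusted calls numbered 34 in the limma fit used above. In the alternatives they ranged from 0 (methods' t-test, slide row block) to 2098 (array weights). Calls by the study's thresholds numbered 590 in the limma fit used above. In the alternatives they ranged from 176 (normexp) to 1948 (no filter on dim probes). These are probe counts of the present fits and not the study's own list. Same-numbered mice did not deviate together (correlations -0.15, -0.03 and -0.18). With the replicate number as a block, or pairing, 0 natriuretic peptide probes passed the adjusted threshold. The *Nppa* change stays at -1.47 by construction, because each block holds 1 array of each group (limma adjusted *P* = 0.0952). With 3 arrays per group a *P* above the threshold does not show equal levels, and the 4 probes near background allow no statement on *Nppc* or *Npr1*.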
